A study of Homo sapiens with 16 samples.

Results

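The MYC, MAX and MXD network is a set of basic helix-loop-helix leucine zipper transcription factors, and 10 of its genes were followed here: MYC, MAX, MNT, MGA, MXD1, MXD3, MXD4, MXI1, MLX and MLXIP. They were taken by symbol from a count table of 20531 entries, and all 10 were listed there and passed the filter on low counts in every comparison. The RNA came from LNCaP, an androgen-responsive line of human prostate cancer cells, and was read by RNA-seq in 16 libraries. Cells were transfected with a nonsense control siRNA (NS) or with a pool of siRNAs against SLIRP, an RNA-binding protein that acts as a corepressor of nuclear receptors. They were then moved to serum-free medium with ethanol vehicle (Veh) or 1 nM dihydrotestosterone (DHT), the main androgen of prostate tissue. This gave 4 libraries in each of 4 groups (NS-Veh and SLIRP-Veh without androgen, NS-1nM DHT and SLIRP-1nM DHT with it), which share the line, the transfection and the serum-free medium. By the study's methods the replicates came from more than 1 experiment, but the labels do not say which library belongs to which, so p-values measure the spread between these libraries. In both NS groups replicates 1 and 2, and replicates 3 and 4, were closer to each other (chi-square per degree of freedom 1.21 to 1.37) than libraries across those pairs were (1.44 to 1.86), and the SLIRP siRNA groups did not show this split in full. A fit with these pairs as a term, chosen after the data were seen, ended none of the members' calls given here.

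MYC works as a dimer. It pairs with MAX, binds the DNA word CACGTG (an E-box) near promoters and raises transcription of genes for ribosome production, metabolism and cell growth. The MXD proteins (MXD1, MXD3, MXD4 and MXI1), MNT and MGA compete with MYC for MAX and bind the same word, and the MXD proteins and MNT bring in the SIN3 corepressor with its histone deacetylases. MLX is a second shared partner: it pairs with MLXIP (MondoA), which responds to glucose-derived sugars and drives TXNIP and ARRDC4, and it can also pair with MNT and some MXD proteins. In prostate cancer MYC is a frequently gained oncogene.

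The libraries held 436353 to 1689708 counts, so a gene near 10 CPM (a count divided by its scaled library total, multiplied by 1000000) rested on few counts in the shallowest ones. SLIRP itself averaged 57.1 CPM in the NS libraries and 3.82 CPM in the SLIRP siRNA libraries, with separate ranges. The luminal prostate markers were present throughout, with summed levels of 2972 to 4688 CPM (at most 3120 CPM in SLIRP-Veh, at least 4065 CPM in NS-Veh), while 2 of 3 basal, 2 of 3 leukocyte, 2 of 3 endothelial and 1 of 3 fibroblast markers had 0 counts in every library of each group. Over all 16 libraries 4 of the 9 luminal markers, among them FOLH1, HOXB13 and KRT8, were lower with SLIRP siRNA and none was higher. Within single treatments they went both ways. In vehicle 5 were lower and 1 was higher, and in 1 nM DHT 5 were lower and 3 were higher. With DHT in NS cells 4 of 9 were higher. These shifts ran beside the network's values, and their part in them was not tested. In these bulk samples fewer cells of a type and less RNA per cell cannot be told apart.

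With SLIRP knockdown the MXD antagonists MXD1, MXD4 and MXI1 fell, MLXIP fell and MGA rose, while MYC itself did not pass the test. Over all 8 SLIRP siRNA libraries against all 8 NS libraries, 4 of 10 members were lower and 1 was higher at an adjusted p under 0.01. Over all 10167 genes tested, 17.4% were lower and 17.8% were higher. So 4 of 10 lower was above its background share, and 1 of 10 higher was near its own. At an unadjusted p under 0.05 there were 7 of 10 members, against 53.1% of all genes. The median log2 fold change was -0.15 over the members and -0.01 over all genes tested. None of these 5 calls was lost under any alternative or with any single library left out. Within vehicle, MAX and MGA were higher (2 of 10 members; background 11.8% higher) and MXD4, MXI1 and MLXIP were lower (3 of 10; background 9.95% lower). Within 1 nM DHT, MGA was higher (1 of 10; background 12.8% higher) and MXD1, MXD4, MXI1 and MLXIP were lower (4 of 10; background 11.6% lower). These within-treatment contrasts came from a model of all 4 groups, and the vehicle and DHT contrasts share none of the libraries they compare.

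**Figure D1:**
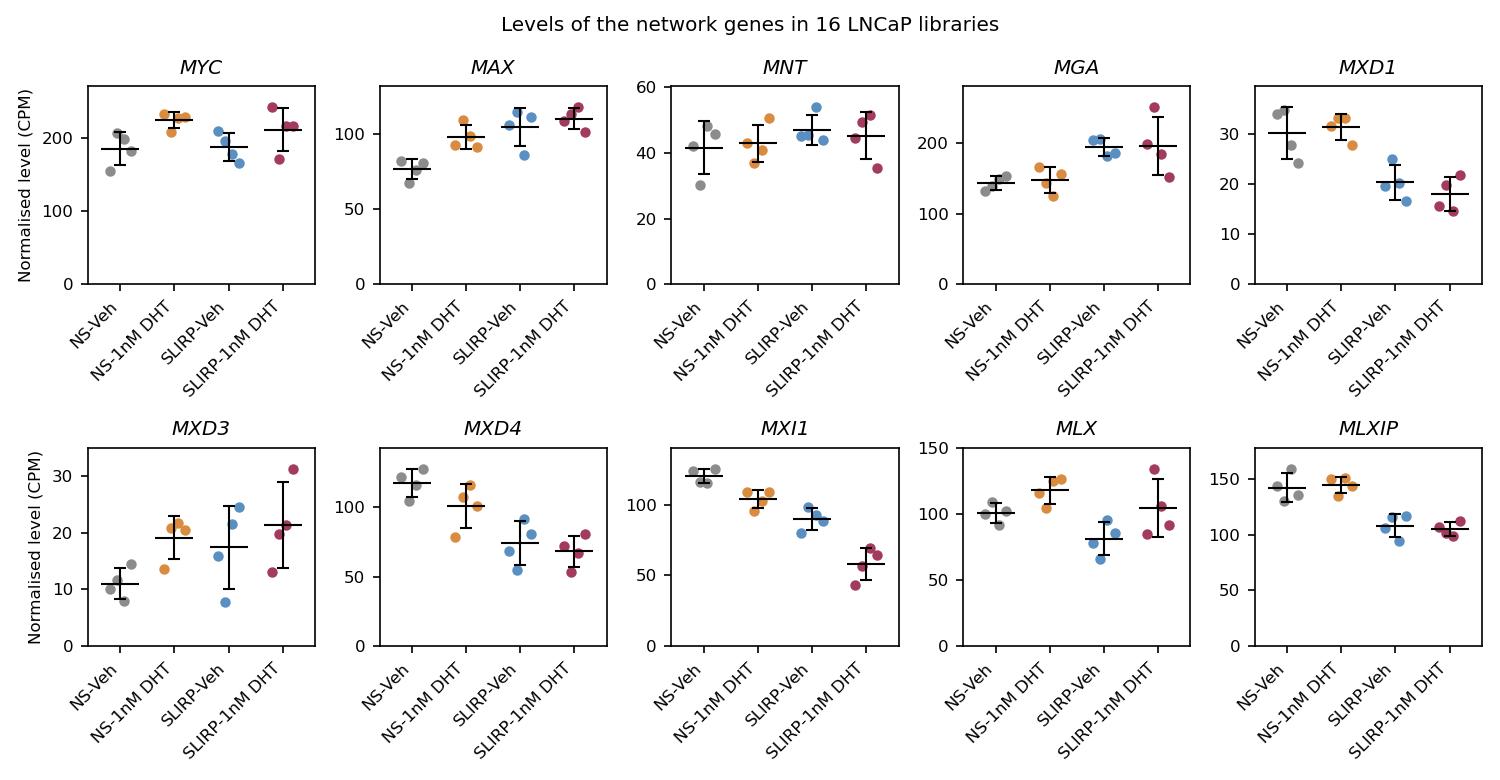
Level of each network gene in CPM (scaled counts, vertical axes starting at 0) in the 4 groups, with 1 point per library and the mean and SD of 4 libraries in black. All 8 MLXIP points with SLIRP siRNA lie under all 8 NS points, MXI1 is lowest in SLIRP-1nM DHT with a mean of 58.2 CPM, and the MYC points of the NS and SLIRP groups overlap.

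MYC (Entrez 4609, on chromosome 8 at chr8:128747680-128755197 of hg19, plus strand) encodes the activating member. Its levels were 154, 206, 198 and 182 CPM in NS-Veh and 209, 196, 178 and 166 CPM in SLIRP-Veh. In DHT they were 232, 208, 226 and 228 CPM with NS siRNA and 241, 171, 216 and 216 CPM with SLIRP siRNA. The NS and SLIRP values overlapped in vehicle and in DHT. Over all 16 libraries the log2 fold change with SLIRP siRNA was -0.05 (SE 0.0853, 95% interval -0.22 to 0.12, adjusted p = 0.666). An antisense locus, CASC11, overlaps the exons of MYC on the opposite strand, and the strand setting of the counting is not given in the sources used here, so reads of the pair could not be told apart.

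The partner MAX (Entrez 4149, chr14:65472892-65569413, minus strand) is the shared dimer partner that both MYC and its antagonists need. It was measured at 82.1, 67.2, 76.0 and 80.3 CPM in NS-Veh and at 106, 114, 86.1 and 111 CPM in SLIRP-Veh. Those ranges were separate, and MAX was higher in vehicle with SLIRP siRNA (log2 fold change 0.44, SE 0.123, adjusted p = 0.00483). In DHT the NS libraries gave 92.3, 109, 98.4 and 91.4 CPM and the SLIRP siRNA libraries 108, 113, 117 and 101 CPM. These ranges overlapped and the difference was 0.16 (SE 0.113, adjusted p = 0.274). Over all 16 libraries it was 0.27 (adjusted p = 0.0141), which did not pass. With treatment as a covariate the same contrast passed (adjusted p = 0.00427). The vehicle call was lost with DESeq2 (adjusted p = 0.013), without NS-Veh replicate 2 or 3 and without SLIRP-Veh replicate 1, 2 or 4, with log2 fold changes of 0.40 to 0.50 over the fits that left out a library.

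MXI1 (Entrez 4601, chr10:111967363-112047123, plus strand) encodes an MXD-family repressor that pairs with MAX and recruits SIN3. In NS-Veh it stood at 124, 116, 116 and 125 CPM and in SLIRP-Veh at 79.9, 98.6, 92.8 and 88.5 CPM, so every knockdown library was under every control library. In NS-1nM DHT the values were 109, 95.6, 103 and 109 CPM, against 43.0, 56.4, 68.9 and 64.3 CPM in SLIRP-1nM DHT. The fall with SLIRP siRNA was 0.735-fold in vehicle (log2 fold change -0.44, SE 0.121, adjusted p = 0.00437) and 0.571-fold in DHT (-0.81, SE 0.128, adjusted p = 3.84e-06). The vehicle call was lost with DESeq2 (adjusted p = 0.0109) and with limma on the normalized table (adjusted p = 0.0224 at a pseudocount of 1), and without NS-Veh replicate 3 or 4 or SLIRP-Veh replicate 1 or 4. The direction held in all of these fits, with log2 fold changes of -0.49 to -0.38 over the fits that left out a library.

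MXD4 (Entrez 10608, chr4:2249159-2263836, minus strand), another repressor of the family, fell in both treatments. Its NS-Veh libraries held 122, 104, 116 and 128 CPM and its SLIRP-Veh libraries 68.7, 54.8, 91.5 and 80.6 CPM. The ranges were separate, and the log2 fold change was -0.68 (SE 0.14, adjusted p = 1.96e-04). In DHT the NS values were 78.6, 107, 116 and 101 CPM and the SLIRP siRNA values 71.7, 53.6, 67.0 and 80.4 CPM. NS-1nM DHT replicate 1 lay within the range of the knockdown libraries there, and the log2 fold change was -0.55 (SE 0.14, adjusted p = 0.00214). MXD4 was the only member whose vehicle call stayed with each of the 8 libraries left out in turn. The DHT call was lost without NS-1nM DHT replicate 2 or 3 or SLIRP-1nM DHT replicate 2, with log2 fold changes from -0.63 to -0.46. The microRNA gene MIR4800 lies within MXD4 on the same strand.

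MXD1 (Entrez 4084, chr2:70124820-70170077, plus strand), the founding MXD gene and one linked to differentiation, was a low-count member with 12 to 43 counts per library. The NS-Veh libraries gave 34.0, 34.8, 27.7 and 24.1 CPM, and the SLIRP-Veh libraries 19.5, 25.05, 20.2 and 16.7 CPM. A single pair of values crossed, and the vehicle difference of -0.53 on the log2 scale did not pass (SE 0.218, adjusted p = 0.0618). In DHT the levels were 31.5, 33.2, 33.1 and 27.8 CPM with NS siRNA and 15.7, 19.7, 14.6 and 21.7 CPM with SLIRP siRNA. There the ranges were separate and MXD1 fell (log2 fold change -0.79, SE 0.211, adjusted p = 0.00314). Over all 16 libraries it was 0.63-fold of NS (adjusted p = 3.53e-04). The call in DHT was lost with DESeq2 (adjusted p = 0.0166) and without NS-1nM DHT replicate 2 or 3 or SLIRP-1nM DHT replicate 1 or 3, with log2 fold changes of -0.91 to -0.69 over the fits that left out a library.

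MXD3 (Entrez 83463, chr5:176728462-176739758, minus strand) is the family member known for expression in dividing cells. With 5 to 39 counts per library it was the least counted member. Its values were 10.01, 11.6, 7.93 and 14.5 CPM in NS-Veh and 15.98, 7.83, 21.5 and 24.5 CPM in SLIRP-Veh. In DHT they were 13.6, 20.8, 21.8 and 20.5 CPM with NS siRNA and 13.0, 19.7, 21.4 and 31.4 CPM with SLIRP siRNA. The SLIRP-Veh libraries spanned the whole NS-Veh range, and none of the SLIRP contrasts passed. The log2 fold change over all 16 libraries was 0.35 (95% interval -0.11 to 0.82, adjusted p = 0.212), opposite in sign to MXD1, MXD4 and MXI1. The antagonist MNT (Entrez 4335, chr17:2287367-2304398, minus strand), which is expressed in most cells and also pairs with MLX, ranged from 30.1 to 50.5 CPM with NS siRNA and from 35.4 to 53.8 CPM with SLIRP siRNA. Its log2 fold change was 0.07 (95% interval -0.16 to 0.31, adjusted p = 0.719).

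MGA (Entrez 23269, chr15:41913332-42065279, plus strand), a large protein that pairs with MAX inside a polycomb-type repressor complex, was the member that rose over all 16 libraries. Levels of 132, 139, 149 and 154 CPM in NS-Veh stood against 205, 207, 182 and 186 CPM in SLIRP-Veh, with separate ranges (log2 fold change 0.42, SE 0.118, adjusted p = 0.00589). In DHT, NS values of 167, 144, 125 and 156.5 CPM stood against 198, 251, 184 and 153 CPM. SLIRP-1nM DHT replicate 4 lay inside the control range, and the log2 fold change was 0.39 (SE 0.114, adjusted p = 0.00711). The vehicle call was lost with limma at a pseudocount of 1 (adjusted p = 0.0115) and without NS-Veh replicate 1, 2 or 3 or SLIRP-Veh replicate 1 or 2, and the DHT call without NS-1nM DHT replicate 2 or 3 or SLIRP-1nM DHT replicate 1, 2 or 3. Over the fits that left out a library the log2 fold change was 0.37 to 0.47 in vehicle and 0.26 to 0.52 in DHT. The DHT call was also lost in a fit of those 8 libraries alone (adjusted p = 0.012) and with limma (adjusted p = 0.0475 at a pseudocount of 1). Over all 16 libraries MGA was 1.32-fold of NS (adjusted p = 2.52e-04).

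In the MLX arm, MLXIP (Entrez 22877, chr12:122516628-122631894, plus strand) was the only one of the 10 genes whose 8 SLIRP siRNA libraries all lay under its 8 NS libraries. NS-Veh gave 144, 130, 159 and 136 CPM and SLIRP-Veh gave 106, 116, 94.2 and 117 CPM. NS-1nM DHT gave 149.9, 135, 151 and 143 CPM and SLIRP-1nM DHT gave 107, 102, 99.0 and 113 CPM. The log2 fold change was -0.41 in vehicle (SE 0.108, adjusted p = 0.00277) and -0.45 in DHT (SE 0.105, adjusted p = 7.15e-04). The vehicle call was lost with limma at a pseudocount of 10 (adjusted p = 0.0107) and without NS-Veh replicate 3 or SLIRP-Veh replicate 1 or 3, with log2 fold changes from -0.45 to -0.32, and the DHT call was kept in each such fit. Its partner MLX (Entrez 6945, chr17:40719090-40725257, plus strand) ranged from 91.2 to 126 CPM with NS siRNA and from 65.8 to 134 CPM with SLIRP siRNA. The MLX difference was -0.25 on the log2 scale (95% interval -0.47 to -0.03, adjusted p = 0.0523). Without SLIRP-1nM DHT replicate 2, the highest MLX value at 134 CPM, it was -0.33 and passed with edgeR (adjusted p = 0.00599). PSMC3IP overlaps MLX exons on the opposite strand, and unnamed antisense loci overlap MAX, MNT and MXI1, so their values carry the same limit as MYC.

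**Figure D2:**
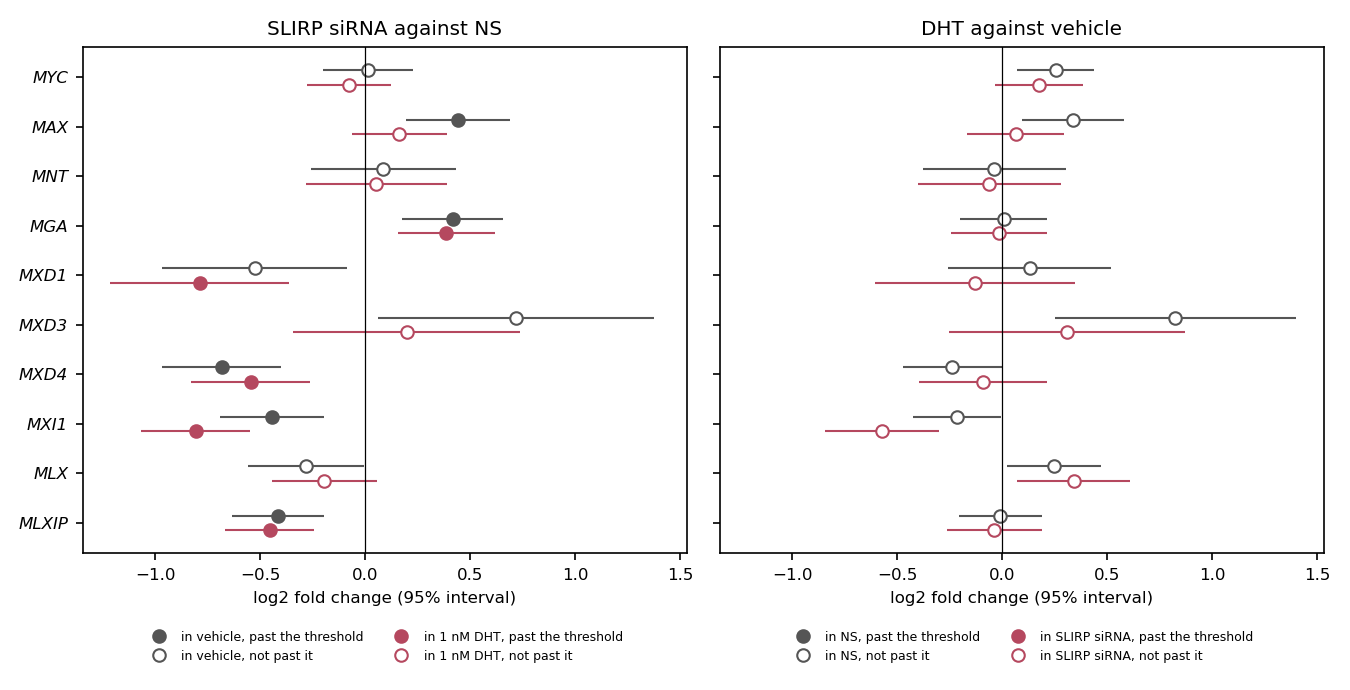
Log2 fold change of each network gene (horizontal axis, with 95% intervals) for SLIRP siRNA against NS on the left and DHT against vehicle on the right, with filled points past an adjusted p of 0.01. On the left MXD4, MXI1 and MLXIP are filled on the low side in both treatments and MGA on the high side in both, and on the right no point is filled.

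Promoter windows (250 bases before to 50 after each RefSeq start, GRCh38.p14) were matched for 9 of the 10 members. The E-box CACGTG, which reads the same on both strands, was in windows of 3 of them, MXD4, MNT and MLX, and in 7.26% of all 35116 windows. The first is a count of genes and the second a share of windows, so they are not like for like. MXI1, MGA and MAX each had multiple windows. The 3 antagonists that fell are shown by the 250 bases before the start used by their main transcript, with any CACGTG in capitals, because they moved together with knockdown. They lie at chr2:69914859-69915108 on the plus strand (MXD1), chr10:110207355-110207604 on the plus strand (MXI1) and chr4:2262110-2262359 on the minus strand (MXD4).
MXD1: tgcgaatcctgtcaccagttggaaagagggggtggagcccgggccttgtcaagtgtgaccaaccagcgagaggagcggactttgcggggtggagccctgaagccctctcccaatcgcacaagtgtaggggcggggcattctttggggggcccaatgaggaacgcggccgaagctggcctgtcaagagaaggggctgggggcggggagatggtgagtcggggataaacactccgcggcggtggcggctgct
MXI1: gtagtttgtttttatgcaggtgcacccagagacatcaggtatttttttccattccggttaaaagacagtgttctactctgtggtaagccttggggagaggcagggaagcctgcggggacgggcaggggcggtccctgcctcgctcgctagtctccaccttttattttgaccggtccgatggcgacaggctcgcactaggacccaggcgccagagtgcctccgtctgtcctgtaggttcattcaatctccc
MXD4: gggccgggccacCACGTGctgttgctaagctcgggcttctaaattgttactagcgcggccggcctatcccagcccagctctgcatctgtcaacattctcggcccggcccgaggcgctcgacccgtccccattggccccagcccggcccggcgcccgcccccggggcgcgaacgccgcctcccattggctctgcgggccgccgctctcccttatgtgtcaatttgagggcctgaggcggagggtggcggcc
The MXD4 window held CACGTG with its first base at -238 from the start, and the MXD1 and MXI1 windows did not hold these letters. A match is a description of the sequence, and none of these windows was measured for binding here.

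Levels of different genes were compared only per kilobase of transcript, as CPM per kb. In NS-Veh the order was MYC (49.7 ± 6.15 CPM per kb, SD, n = 4), MLX (42.6 ± 3.10), MAX (38.0 ± 3.30), MXI1 (34.6 ± 1.49), MXD4 (30.4 ± 2.58), MLXIP (16.9 ± 1.52), MGA (11.8 ± 0.817), MXD3 (10.3 ± 2.58), MNT (8.43 ± 1.63) and MXD1 (5.43 ± 0.924). By mean ± SD, MYC overlapped MLX, MLX overlapped MAX and MAX overlapped MXI1, and MXD3 overlapped both MGA and MNT. The other neighbours in this order did not overlap. In SLIRP-1nM DHT the levels of MXI1 (16.8 ± 3.27 CPM per kb), MXD4 (17.6 ± 2.90), MXD3 (20.04 ± 7.09) and MGA (16.1 ± 3.36) overlapped one another, whereas MYC (56.7 ± 7.90) and MAX (54.7 ± 3.43) stood above them.

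MYC was then set against the sum of MXD1, MXD3, MXD4, MXI1 and MNT in each library, as the log2 difference in CPM per kb. A value under 0 means less MYC RNA than RNA of these antagonists. MGA, which also competes for MAX and rose with SLIRP siRNA, was left out of this sum. NS-Veh libraries gave -1.18, -0.64, -0.73 and -1.01, and NS-1nM DHT libraries gave -0.39, -0.70, -0.67 and -0.63. SLIRP-Veh libraries gave -0.35, -0.34, -0.88 and -0.91, and SLIRP-1nM DHT libraries gave 0.16, -0.51, -0.34 and -0.51. NS-Veh was lowest on average and SLIRP-1nM DHT highest, with all 4 SLIRP-1nM DHT libraries above all 4 NS-Veh libraries, and the other groups lay between and overlapped both. The group means were -0.89 ± 0.25, -0.60 ± 0.14, -0.62 ± 0.32 and -0.30 ± 0.31 (SD, n = 4) with the groups in that order. These are given as a description, with no test. The antagonist sum on the log2 scale averaged 6.53 ± 0.09, 6.52 ± 0.11, 6.28 ± 0.19 and 6.13 ± 0.22 in the same order, and MYC 5.64 ± 0.18, 5.92 ± 0.07, 5.66 ± 0.15 and 5.83 ± 0.21. Within vehicle, replicates 1 and 2 gave a difference between SLIRP siRNA and NS of 0.57, whereas replicates 3 and 4 gave -0.02. In DHT the same pairs gave 0.37 and 0.23. This split was made after the data were seen, and no label pairs libraries across the siRNAs. SLIRP-Veh replicates 1 and 2 were themselves not close (chi-square per degree of freedom 1.88). The vehicle difference thus varied with the libraries taken. The groups with SLIRP siRNA had the lower antagonist sums, and the groups with DHT the higher mean MYC levels.

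The makeup of the antagonist sum also differed between groups. MXI1 made up 38.0% ± 0.934 of the sum in NS-Veh (SD, n = 4) and 33.4% ± 3.79 in NS-1nM DHT, against 34.3% ± 5.91 with SLIRP siRNA in vehicle and 24.6% ± 2.53 with both. MXD3 ran the other way, at 13.0% ± 2.34, 21.4% ± 2.53, 22.7% ± 6.59 and 30.5% ± 5.52 in the same group order. Its share rests on 5 to 39 counts per library and on the shortest transcript length of the members (1.067 kb). No MXD3 contrast passed. For these sums 2 counts, scaled to library size, were added to each gene before the log2 scale, which raises low counts most. MXD4 held 33.2% ± 1.22 in NS-Veh and 24.9% to 28.7% on average in the other 3 groups. MNT stayed between 9.50% and 13.9% and MXD1 between 5.12% and 6.56% on average.

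**Figure D3:**
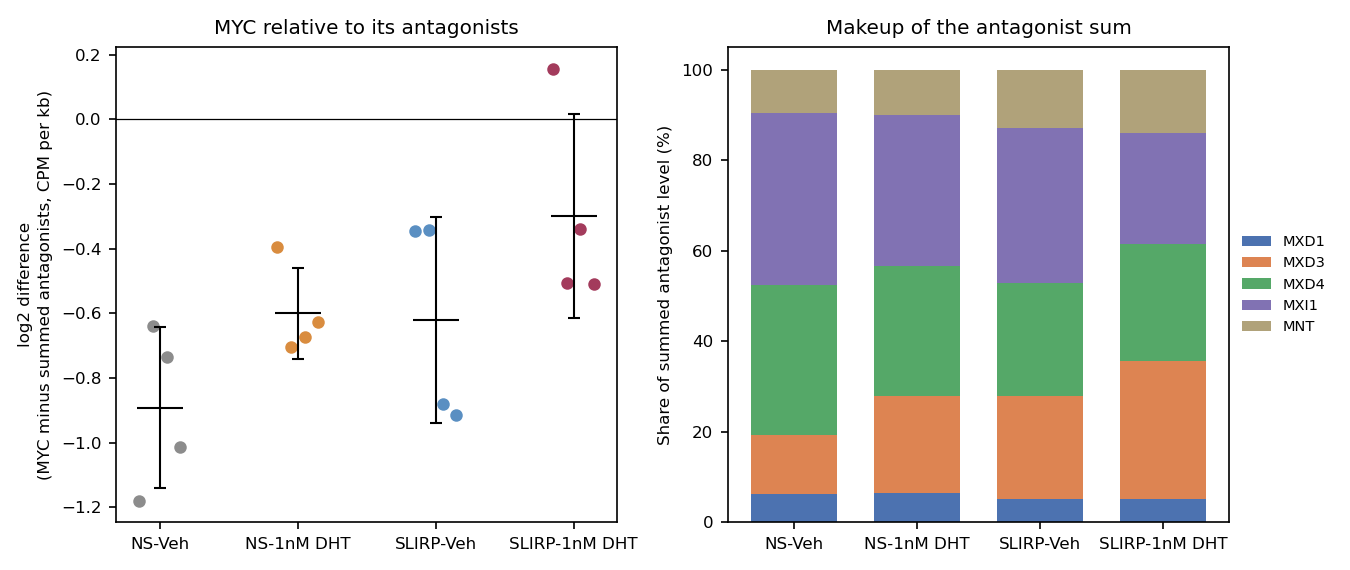
Left, log2 difference between MYC and the sum of 5 antagonists in CPM per kb, with 1 point per library and the mean and SD of 4 libraries in black, where 0 means equal levels. Right, mean share in percent of each antagonist in that sum, in which the MXI1 share is 38.0% in NS-Veh and 24.6% in SLIRP-1nM DHT while the MXD3 share is 13.0% and 30.5%.

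DHT alone was the next question: whether 1 nM androgen moved the network in NS cells. None of the 10 members passed at an adjusted p under 0.01 with edgeR (0 higher, 0 lower), nor with limma or with DESeq2, which gave 8 of them an adjusted p. In this comparison 0.849% of all 10367 genes were higher and 0.463% were lower. At an unadjusted p under 0.05, 6 of 10 members (MYC, MAX, MXD3, MXD4, MXI1 and MLX) were counted, against 14.3% of all genes tested. The median log2 fold change was 0.07 over the members and 0.00 over all genes. Every NS-1nM DHT library lay above every NS-Veh library for MYC (0.25 on the log2 scale, SE 0.0904, adjusted p = 0.143) and for MAX (0.34, SE 0.118, adjusted p = 0.136),. Every one lay below for MXI1 (-0.22, SE 0.104, adjusted p = 0.336). MXD3 had the largest difference, 0.82 (SE 0.282, adjusted p = 0.124), with NS-1nM DHT replicate 1 inside the vehicle range. The study put MXD3 on its own list of androgen-responsive genes from these same NS libraries, so this value is not independent evidence for it.

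In SLIRP siRNA cells DHT gave no call among the members with edgeR either (0 of 10 in both directions; background 0.636% higher and 0.534% lower of 10684 genes). At an unadjusted p under 0.05 there were 2 members, MXI1 and MLX, against 15.6% of all genes. MXI1 was at the threshold: its 4 SLIRP-1nM DHT libraries all lay below its 4 SLIRP-Veh libraries, with a log2 fold change of -0.57 (SE 0.134, adjusted p = 0.0106). It passed with the library pairs as a term (adjusted p = 0.00469) and with limma on the normalized table (adjusted p = 0.00713 at a pseudocount of 1) and did not pass with DESeq2. Leaving out SLIRP-1nM DHT replicate 3 also gave it a call. MLX differed by 0.34 (SE 0.134, adjusted p = 0.185) and MYC by 0.17 (SE 0.103, adjusted p = 0.441), both with overlapping ranges.

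The difference between the DHT responses of SLIRP siRNA and NS cells was tested directly. No member passed, and 0% of the 10684 genes were higher or lower at an adjusted p under 0.01 with edgeR, nor was any member called by DESeq2 or limma. At an unadjusted p under 0.05 there was 1 member, MXI1, against 3.63% of all genes. For MXI1 the DHT change was 0.36 lower on the log2 scale in SLIRP siRNA cells (log2 difference -0.36, SE 0.177, 95% interval -0.72 to -0.00477, unadjusted p = 0.0472, adjusted p = 1). For MYC the difference was -0.09 (95% interval -0.38 to 0.21), for MAX -0.28 (-0.62 to 0.06) and for MXD3 -0.52 (-1.37 to 0.33). These 3 intervals include 0.

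The genes that MYC is known to activate mostly rose with SLIRP knockdown, without a change in MYC RNA that passed the test. Of 25 tested genes on a list of textbook MYC-activated targets, 16 were higher, 1 was lower and 8 did not pass (background 17.8% higher). The median log2 fold change was 0.40 against -0.01 over all genes tested. This list and those below were chosen with earlier results of these data known, so the shares beside them are not an independent test. CDC25A, a cell cycle phosphatase, had the largest change and averaged 17.8 CPM in NS and 64.1 CPM in SLIRP siRNA libraries (log2 fold change 1.68, SE 0.205, adjusted p = 5.81e-08). POLR1B, a subunit of the RNA polymerase that makes ribosomal RNA, rose by 0.95 (SE 0.113, adjusted p = 3.87e-08), and HSPE1, a mitochondrial chaperonin, by 0.66 (adjusted p = 1.28e-06). The gene that fell was EIF4E, the cap-binding translation factor, at -0.36 (SE 0.0809, adjusted p = 4.30e-04), named here after its value was seen.

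Textbook MYC-repressed genes were higher as well. All 4 that could be tested were higher over the 16 libraries, with a median log2 fold change of 0.97 (background 17.8% higher). Within vehicle 2 of 4 passed (background 11.8% higher), and within DHT 3 of 4 (background 12.8% higher). The remaining listed gene, CDKN2B, did not pass the filter on low counts and averaged 4.65 CPM in NS and 2.36 CPM in SLIRP siRNA libraries, named here after its value was seen. THBS1, an inhibitor of blood vessel growth, rose from a mean of 16.1 to 52.2 CPM (log2 fold change 1.69, SE 0.189, adjusted p = 1.25e-08). CDKN1A, which encodes the cyclin-dependent kinase inhibitor p21, rose from 114 to 237 CPM (1.07, SE 0.108, adjusted p = 1.93e-09), and GADD45A, a growth arrest gene, by 0.87 (adjusted p = 0.00252). CDKN1A and GADD45A are also known targets of p53. Activated and repressed targets thus both had medians above 0.

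**Figure D4:**
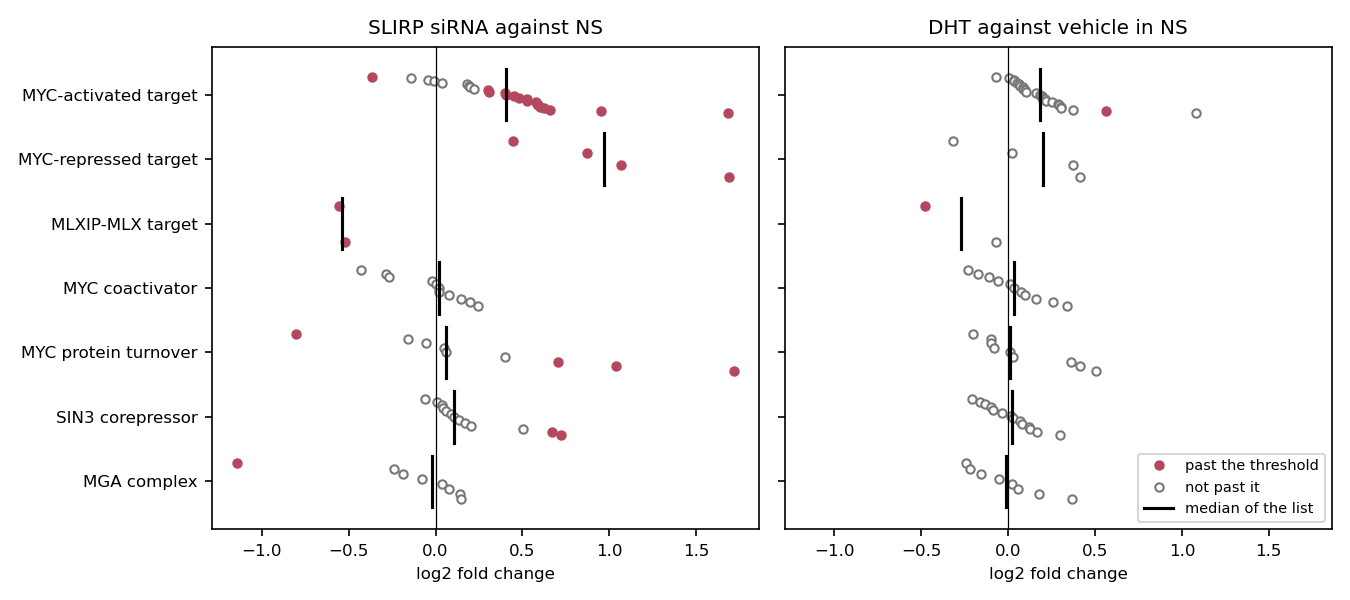
Log2 fold change of each tested gene (horizontal axis) by list (rows), for SLIRP siRNA against NS on the left and DHT against vehicle in NS on the right, with filled points past an adjusted p of 0.01 and a black line at the median of the list. On the left 16 of 25 MYC-activated and all 4 MYC-repressed genes are filled on the high side and both MLXIP-MLX targets on the low side, and on the right SRM and TXNIP are the filled points.

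The target genes of the MLXIP-MLX dimer were lower with SLIRP siRNA, as MLXIP was. TXNIP, an inhibitor of thioredoxin and of glucose uptake, had group ranges of 380 to 460 CPM in NS-Veh, 280 to 316 CPM in NS-1nM DHT, 266 to 289 CPM in SLIRP-Veh and 170 to 252 CPM in SLIRP-1nM DHT. It was lower with SLIRP siRNA in vehicle (log2 fold change -0.58, SE 0.0956, adjusted p = 8.20e-06) and in DHT (-0.46, SE 0.0976, adjusted p = 3.06e-04), and lower with DHT in NS cells (-0.48, SE 0.0777, adjusted p = 2.08e-04). With DHT in SLIRP siRNA cells its difference of -0.35 did not pass (adjusted p = 0.0439). MLXIP itself differed by -0.01 with DHT in NS cells (95% interval -0.21 to 0.19). ARRDC4, an arrestin-domain protein related to TXNIP, was lower over all 16 libraries (-0.56, SE 0.148, adjusted p = 0.00255). It passed in neither treatment alone, with -0.61 in vehicle (adjusted p = 0.0257) and -0.49 in DHT (adjusted p = 0.0579), and with DHT in NS cells its difference was -0.07 (adjusted p = 0.925). So 2 of 2 listed targets were lower with SLIRP siRNA over all 16 libraries, beside the background of 17.4% lower. Within each treatment it was 1 of 2, beside 9.95% lower in vehicle and 11.6% lower in DHT.

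The binding words of this arm are shown from RefSeq windows of GRCh38.p14, with the matched letters in capitals. The longer word is the carbohydrate response element, searched as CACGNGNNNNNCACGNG on both strands and found in 0.057% of the windows. TXNIP held it with its first base at -88 (chr1:145996645-145996673, minus strand), and ARRDC4 (chr15:97960481-97960510, plus strand), MLX (chr17:42567038-42567067, plus strand) and MNT (chr17:2401236-2401265, minus strand) held CACGTG.
TXNIP: gatgtgCACGAGggcagCACGAGcctccg
ARRDC4: aaacggcctgtgCACGTGcacgccggagcc
MLX: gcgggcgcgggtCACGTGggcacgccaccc
MNT: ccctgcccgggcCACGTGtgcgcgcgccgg
Of the 4 genes printed here, TXNIP and ARRDC4 were called lower over all 16 libraries, and MLX and MNT were not called.

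Few genes for proteins that work with the network passed. Of 11 tested MYC coactivators none passed with SLIRP siRNA with edgeR, and 5 had an unadjusted p under 0.05 (median log2 fold change 0.02), which is no more than the 53.1% of all genes. Of 13 tested genes of the SIN3 corepressor, which the MXD proteins recruit, 2 were higher and none was lower (median 0.11), near the background of 17.8% higher. These were HDAC2, a histone deacetylase, at 0.67 (SE 0.073, adjusted p = 6.67e-09) and SUDS3, a structural subunit, at 0.72 (SE 0.0873, adjusted p = 5.42e-08). Of 8 tested genes of the MGA complex, 1 was lower and none was higher (median -0.02), near the background of 17.4% lower. That gene was CBX3, a heterochromatin protein, which fell from a mean of 226 to 101 CPM with separate ranges (log2 fold change -1.14, SE 0.0797, adjusted p = 7.58e-13), while MGA itself rose.

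Of 9 tested genes that act on MYC protein stability or phosphorylation, 3 were higher and 1 was lower over all 16 libraries (median 0.06, background 17.8% higher and 17.4% lower). Within each treatment 2 were higher and none was lower. The background there was 11.8% higher in vehicle and 12.8% higher in DHT. PIM1, a kinase that phosphorylates MYC, rose from 10.2 to 31.8 CPM (log2 fold change 1.72, SE 0.22, adjusted p = 1.45e-07). AURKA, a mitotic kinase that stabilises MYC family proteins, rose by 1.04 (SE 0.229, adjusted p = 3.96e-04), and SKP2, a ubiquitin ligase subunit that acts on MYC, fell by 0.80 on the log2 scale (SE 0.211, adjusted p = 0.00217). SKP2 passed in neither treatment alone (adjusted p = 0.0577 in vehicle and 0.0199 in DHT), and AURKA passed in vehicle but not in DHT (adjusted p = 0.0219). RNA levels do not measure MYC protein. The paralogs of the network were scarce: MYCN had 0 counts in all 16 libraries, which allows up to 1.76 to 6.89 CPM per library at 3 counts and covers counting error only, and MYCL and MLXIPL did not pass the filter in the comparison of 8 against 8.

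With DHT in NS cells the same lists gave few calls. Of 25 MYC-activated targets, 1 was higher and none was lower, with a median log2 fold change of 0.18 against 0.00 over all genes tested (background 0.849% higher). This was SRM, the spermidine synthase, at 66.0 to 111 CPM in NS-Veh and 127 to 165 CPM in NS-1nM DHT (log2 fold change 0.56, SE 0.119, adjusted p = 0.00469). At an unadjusted p under 0.05 there were 11 of the 25 activated targets, against 14.3% of all genes. None of the 4 tested MYC-repressed genes passed with edgeR, and 1 had an unadjusted p under 0.05. No coactivator, SIN3, MGA complex or protein turnover gene passed in this comparison. Of the 11, 14, 8 and 9 tested, 2, 0, 1 and 0 had an unadjusted p under 0.05.

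The 3 genes whose pattern over the 16 libraries was most like that of MYC, among the 2697 genes whose mean count reached 100, were AP1S1, KIAA0368 and MGST1. AP1S1, an adaptor subunit of clathrin vesicles, had a Pearson r of 0.79 and a Spearman rho of 0.81 on log2 CPM. KIAA0368, a proteasome-associated scaffold, had 0.77 and 0.72, and MGST1, a membrane glutathione transferase, had 0.70 and 0.62. After the group means were removed the Pearson values were 0.65, 0.71 and 0.46. The points share libraries and depth, the genes were picked for this likeness, and the values are a description only.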

How the data were processed

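RNA-seq of 16 LNCaP libraries (hg19 per the submitters' processing notes, which name CASAVA and RSEM) was analysed from 2 deposited tables. The first holds the authors' RSEM estimated counts (expected counts), used as deposited. The second holds the authors' normalized score, which was each count divided by the library's upper quartile and scaled, and it served only as an alternative. Aligner settings and counting strand are not given in the sources used here. The 29 count entries without a symbol were not removed before filtering and testing. Depth was 436353 to 1689708 counts per library, which limits precision for the low-count genes.

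Counts were scaled by TMM, filtered with filterByExpr and tested with edgeR 4.0.16 (quasi-likelihood, R 4.3.3), with Benjamini-Hochberg adjusted p-values over all genes tested and a threshold of 0.01. The siRNA contrast used 16 libraries, the DHT contrast in NS cells used those 8, and the other contrasts came from a model of 4 groups, with groups taken from the sample labels. SE is the fold change over the root of the F statistic, and intervals are 95%. CPM per kb used the length of the canonical transcript in a GENCODE annotation of GRCh37, or of the longest coding one for MLXIP, which has no such tag there. Alternatives used DESeq2 1.42.0 and limma 3.58.1, other filters and scalings, a replicate block, library pairs as a term (added after the data were seen) and leaving out each library. The tests were tried on simulated data. Within groups, pairs of libraries differed by more than sampling noise (chi-square per degree of freedom at least 1.21), so none was counted as a duplicate.

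The members and gene lists were chosen with earlier results of these data known. All members are named. Of the other lists, the genes named are SLIRP, TXNIP and up to 3 per list with the largest change past the threshold with SLIRP siRNA, plus MYC targets past it with DHT in NS cells.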

Additional observations from a re-analysis of the deposited data

Results flagged for a closer look

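Of 40 groups examined (10 members in 4 groups of 4 libraries), 2 held a library that stood apart from the other 3 by Dixon's test at the 95% level, and chance gives about 1 in 20. MXD3 was at 13.6 CPM in NS-1nM DHT replicate 1, below the other 3 libraries of that group. MNT was at 53.8 CPM in SLIRP-Veh replicate 3, above the others. Without that NS-1nM DHT library the log2 fold change of MXD3 with DHT in NS cells was 0.94 (adjusted p = 0.0845), and over the fits that left out 1 library it was 0.59 to 1.08 and did not pass. The causes were not tested.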

How the results depend on the processing

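Over the alternatives that left out no library, 489 of 524 fold changes of single members kept their direction and their side of the threshold, 10 lost a call, 9 gained one and 16 changed sign. The number of members called in vehicle was 5, but 3 with DESeq2 and 3 with limma at either pseudocount, and 1 to 4 when 1 library was left out, with 1 without NS-Veh replicate 3 or SLIRP-Veh replicate 1. In 1 nM DHT it was 5, and 2 to 5 when 1 library was left out, with 2 without NS-1nM DHT replicate 2 or 3. For DHT in SLIRP siRNA cells it was 0, but 1 (MXI1) with upper-quartile scaling, without a filter, with at least 10 counts per library, at a threshold of 0.05, with limma at either pseudocount, with the library pairs as a term and with the replicate block, and 0 to 1 when 1 library was left out. These fits had fewer samples or genes or another test, and the causes of single changes were not tested. Over all genes, the calls with DHT in NS cells numbered 136, but 236 without a filter, 270 with the block, 293 with the library pairs, 272 at 0.05, 27 and 45 with limma at pseudocounts of 1 and 10, 83 without NS-Veh replicate 1 and 87 without NS-Veh replicate 2. With DHT in SLIRP siRNA cells they numbered 125, but 220 without a filter, 201 with the library pairs, 309 at 0.05, 62 and 77 with limma and 73 without SLIRP-Veh replicate 1. For the difference of DHT responses there were 0, but 11 without a filter and 1 without NS-1nM DHT replicate 2. With limma the median of all genes was -0.11 for SLIRP siRNA against NS in DHT at a pseudocount of 1, so the fold changes there are relative to that.

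Replicate numbers paired the libraries weakly and only in part. The mean correlation of same-numbered deviations was 0.0287 (vehicle, SLIRP against NS), 0.0929 (DHT, SLIRP against NS), 0.137 (NS, DHT against vehicle) and 0.0963 (SLIRP siRNA, DHT against vehicle). In the same order, 1, 2, 3 and 1 of 4 libraries correlated best with their own number. With the replicate block MAX passed in SLIRP siRNA against NS (0.28, adjusted p = 0.00685), and no member lost a call.

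No fold change that changed sign was called in either fit. With DHT in NS cells, MGA was -0.00519 with upper-quartile scaling and -0.00569 with the replicate block. There MNT was 0.0141 with the block and 0.0707 and 0.0691 with limma at pseudocounts of 1 and 10, and MLXIP was 0.0122 with the block, 0.0406 and 0.0404 with limma and 0.0011 in the 4-group model. MYC in vehicle was -0.0015 with upper-quartile scaling, MGA with DHT in SLIRP siRNA cells 0.00718 with DESeq2, and MGA in the difference of DHT responses 0.00367 with the block. With the library pairs as a term, MNT was 0.0105, MGA -0.000106 and MLXIP 0.000439 with DHT in NS cells, and MGA 0.00418 in the difference of DHT responses. When 1 library was left out, signs changed for MNT (-0.141 to 0.0464), MGA (-0.0461 to 0.0783) and MLXIP (-0.052 to 0.0701) with DHT in NS cells, and for MYC (-0.0731 to 0.0881) in vehicle. They also changed in 1 nM DHT for MYC (-0.127 to 0.000251), MNT (-0.0318 to 0.196) and MXD3 (-0.0681 to 0.363), and with DHT in SLIRP siRNA cells for MNT (-0.148 to 0.0817), MGA (-0.143 to 0.12), MXD4 (-0.18 to 0.00464) and MLXIP (-0.0771 to 0.00299). In the difference of DHT responses they changed for MYC (-0.149 to 0.0155), MNT (-0.12 to 0.119), MGA (-0.163 to 0.114), MLX (-0.0384 to 0.179) and MLXIP (-0.119 to 0.012). The difference of MYC from its antagonists between SLIRP siRNA and NS kept its sign in the 3 alternatives (0.20 to 0.32) and with each library left out (0.15 to 0.37), but not within vehicle replicates 3 and 4 alone (-0.02).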
